A study of Mus musculus with 7 samples.

Results

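The sites of H3K4me3 in mouse spermatocytes were compared between postnatal days 12 and 17 (P12 and P17), using the authors' peak list of that mark at each stage. The members were all peaks of both lists, chosen by sample title and not by any measured value: 44142 regions at P12 and 51603 at P17, or 95745 of the 137861 regions in the 5 peak lists of the series. The cells of both stages came from wild-type CD1 mice, an outbred strain. Testes were digested with trypsin and collagenase, and the spermatocytes were taken from a Percoll gradient, fixed with formaldehyde and sonicated for chromatin immunoprecipitation and sequencing. P12 rests on 1 sample whose title names no replicates, and P17 on a pool of 2 replicates. There is thus 1 file per stage and no test between stages. The lists hold positions only, so the read depth behind each is unknown. Stage, pooling, depth and the mix of cells in the fraction, as well as fewer marked cells and less mark per cell, cannot be told apart in any difference below. For the P17 sample the antibody field names H3K27me3 while the title names H3K4me3. Of the P17 peaks, 80.5% (Wilson 95% interval 80.2% to 80.9%) overlapped a P12 H3K4me3 peak and 35.3% (34.9% to 35.8%) a P17 H3K27me3 peak.

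H3K4me3 is laid down by Set1 and MLL family methyltransferases at the starts of active genes and at most CpG-rich promoters. In meiotic cells PRDM9 adds it at the sites of recombination hotspots, away from promoters. At CpG-rich promoters of silent developmental genes it often lies beside H3K27me3, the mark made by Polycomb repressive complex 2 (PRC2), of which EED is a core subunit. The first wave of spermatogenesis carries mouse germ cells through early meiotic prophase and into pachytene over the days studied here. In pachytene the X and Y chromosomes of males are transcriptionally silenced. No gene annotation of the mm9 build was used, so peaks are given by position, and neither marker genes of spermatocytes nor those of other testis cells were checked.

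Nearly all H3K4me3 sites of P12 were still listed at P17, most of them slightly wider, and 10057 sites were added. Of the P12 peaks, 95.7% (95.5% to 95.8%) overlapped a P17 peak by at least 1 bp, which is called kept, and 1919 were lost (4.35%). Of the P17 peaks, 10057 were new (19.5%, 19.1% to 19.8%). Measured in bases, 96.5% of the 74.6 Mb covered at P12 was also covered at P17, whereas 67.7% of the 106 Mb covered at P17 had been covered at P12. The 34.4 Mb gained lay more at the edges of kept peaks and between joined peaks (20.1 Mb, 58.6%) than in new peaks (14.3 Mb, 41.4%). These intervals, here and below, treat called peaks as independent and cover counting error only.

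Most sites kept their identity as single peaks. A P12 peak that overlapped 1 P17 peak, which in turn overlapped no other P12 peak, formed a 1-to-1 pair, and 40823 pairs held 92.5% of P12 peaks and 79.1% of P17 peaks. Another 1355 P12 peaks were joined into 665 P17 peaks, 13 P12 peaks were split, and 16 groups were of mixed kind. Joined, split and mixed peaks together made up 3.17% of the P12 list.

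Loss was concentrated in narrow peaks. Width classes are named by their limits, with the lower limit included and the upper not. In the class of 500 to 1000 bp, 16.1% of P12 peaks were lost (15.2% to 17.0%), against 3.12% of those of 1000 to 2000 bp and 0.0722% of those of 2000 to 4000 bp (8 of 11083). None of the 804 P12 peaks of 4000 bp or more was lost. Lost peaks had a median width of 943 bp, and kept ones 1517 bp. The widest lost peaks (mm9) lay at chr2:28855267-28857698 (2432 bp), chr9:79278552-79280944 (2393 bp), chr1:122177870-122180209 (2340 bp), chrX:157687920-157690252 (2333 bp) and chr17:12017439-12019611 (2173 bp). None of these 5 overlapped an H3K27me3 or EED peak. The nearest P17 H3K4me3 peak lay 2393 bp away for the last of them and between 15188 and 82843 bp away for the others.

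New peaks were also mostly narrow, with a median of 1228 bp against 1874 bp for P17 peaks over a P12 peak, but their widths had a long tail. The share of new peaks was 65.4% (63.6% to 67.2%) among P17 peaks of 500 to 1000 bp, 24.7% at 1000 to 2000 bp and 5.41% at 2000 to 4000 bp. Counted by an overlap of 1 bp, 5.38% (4.64% to 6.22%) of peaks of 4000 to 8000 bp and 7 of 144 of those of 8000 bp or more were new. The profile depends on this rule: when a P17 peak had to be covered over at least 50% of its width not to count as new, the shares were 9.57% at 2000 to 4000 bp, 26.7% (25.2% to 28.3%) at 4000 to 8000 bp and 38.9% (31.3% to 47.0%) at 8000 bp or more, since broad P17 peaks over a narrower P12 peak then count. So 177 sites without any P12 peak carried one of at least 4000 bp at P17, while no P12 peak above 2432 bp was lost. The 5 widest lay at chr7:80956562-80967152 (10591 bp), chr16:3231487-3241796 (10310 bp), chr7:80243887-80254015 (10129 bp), chr7:51485362-51493762 (8401 bp) and chr16:59551770-59560165 (8396 bp). None overlapped H3K27me3 at either stage or EED. The second of them stood 300182 bp from the nearest P12 H3K4me3 peak, and the fourth 6952 bp.

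**Figure D1:**
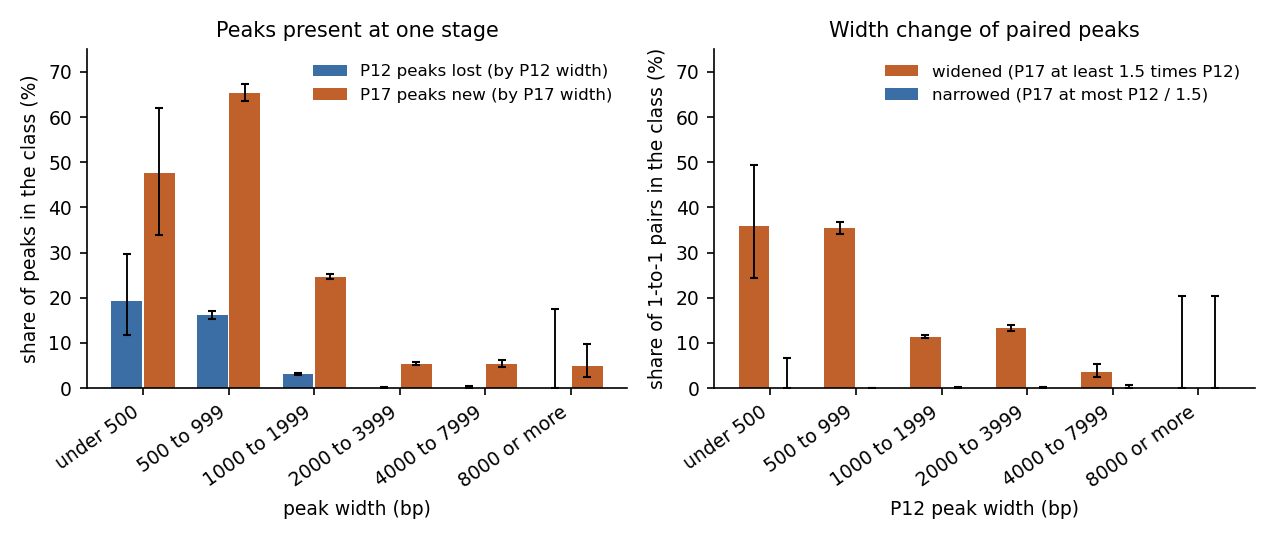
Left, bars give the share (percent) of P12 peaks lost, by P12 width in bp, and of P17 peaks new, by P17 width; right, the share of 1-to-1 pairs widened or narrowed, by P12 width. Lines are Wilson 95% intervals; losses end at 2000 to 4000 bp, whereas new peaks, by an overlap of 1 bp, make up 4.86% to 5.41% of the 3 widest classes, a share that rises to 38.9% in the widest if 50% of the width must be covered.

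Widening was general but small. In 1-to-1 pairs the median width was 1516 bp at P12 and 1859 bp at P17, and the median P17/P12 width ratio was 1.20, and the 10th and 90th percentiles were 1.03 and 1.63. The P17 peak was the wider of the pair in 93.8% of pairs (93.6% to 94.1%), by a median of 313 bp. Across pairs the median outward shift was 154 bp at the lower-coordinate edge and 156 bp at the higher, and the centre moved by a median of 66 bp. These medians do not show that both edges of 1 peak moved alike. Within pairs the larger side took a median of 64.4% to 86.4% of the gain, depending on the size of the gain. In 79.6% of pairs the P12 peak lay wholly within the P17 peak, and in 1.96% the P17 peak lay within the P12 peak. Order by width was largely kept, with a Spearman rho of 0.88 across the 40823 pairs, which share their 2 files and are not replicates. For comparison, the 5944 1-to-1 pairs of H3K27me3 peaks had a median ratio of 2.85 between the same stages. These pairs leave out many sites of that mark, since 49.5% of the 13028 P12 H3K27me3 peaks were joined at P17. Of P12 H3K4me3 peaks, 3.07% were joined.

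A minority of sites widened far more than the rest. A pair was called widened when the P17 peak was at least 1.5 times as wide, and narrowed when the P12 peak was. Widened pairs numbered 6152 (15.1%, 14.7% to 15.4%), of which 1579 were at least 2 times and 294 at least 3 times as wide, and narrowed pairs numbered 42 (0.103%). The threshold does not mark a gap in the ratios, since 1211 pairs lay between 1.45 and 1.5 and 936 between 1.5 and 1.55. Divided by the median ratio of all pairs, 6.0% were widened and 0.412% narrowed. By P12 width, 35.5% of pairs of 500 to 1000 bp were widened, 11.4% of those of 1000 to 2000 bp, 13.3% (12.7% to 13.9%) of those of 2000 to 4000 bp and 3.67% of those of 4000 to 8000 bp, and none of the 15 pairs of 8000 bp or more. The median gain was similar across the classes from 500 to 8000 bp, between 282 and 383 bp. A fixed ratio is therefore reached by a smaller gain in a narrow peak. The 90th percentile of the gain over all pairs was 955 bp.

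**Figure D2:**
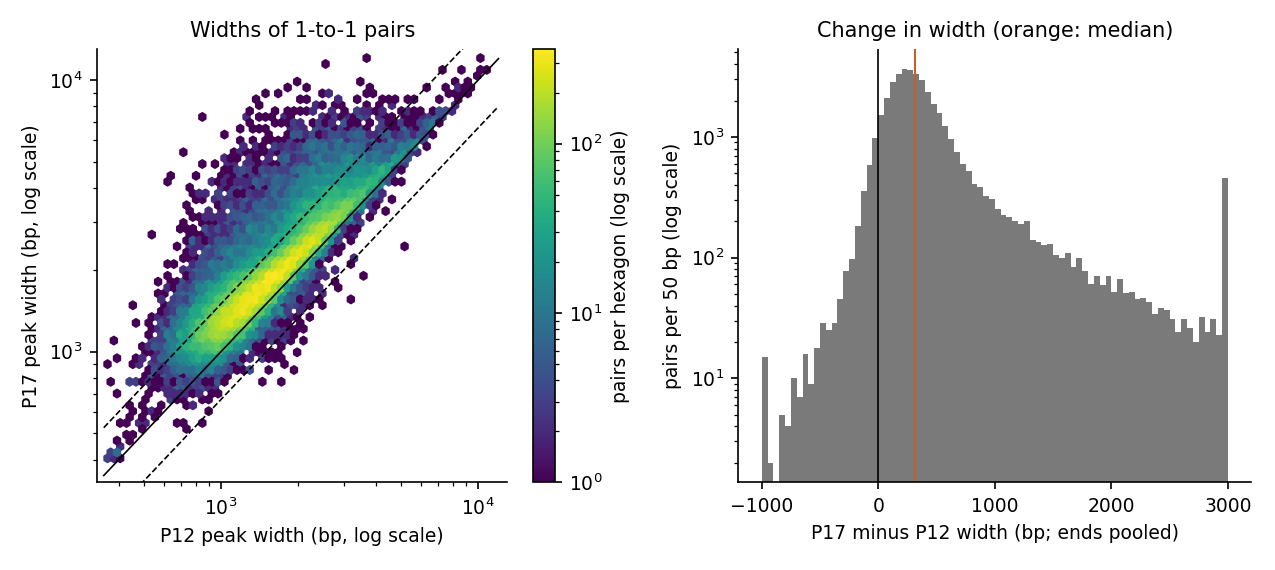
Left, widths in bp of the 40823 pairs on log axes, with hexagons shaded by number of pairs, equality as a solid line and the 1.5-fold limits dashed; right, pairs per 50 bp of change in width on a log axis, with values beyond -1000 and 3000 bp pooled in the end bins. The main ridge lies just above equality (median gain 313 bp, orange), and a sparse cloud of pairs reaches far above it.

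The largest ratios among pairs with a P12 peak of at least 1000 bp were near 6. On chromosome 15 a peak of 1496 bp at 59111012 to 59112507 became one of 9182 bp at 59103992 to 59113173, a ratio of 6.14. It gained 7020 bp on the lower side and 666 bp on the higher. On chromosome 6 a peak of 1015 bp at 24683901 to 24684915 became 6179 bp wide (6.09), gaining 1512 and 3652 bp on its lower and higher sides. A peak at chr13:56523554-56524955 went from 1402 to 8391 bp (5.99), with 446 and 6543 bp gained. One at chr15:78501908-78503184 went from 1277 to 7569 bp (5.93), with 4261 and 2031 bp gained. The last of the 5, at chr14:66242567-66243939, went from 1373 to 8059 bp (5.87), with 507 and 6179 bp gained. In 3 of these 5 the gain lay mostly on 1 side, with 446 to 666 bp on the other. The peaks at chromosome 13 and the second at chromosome 15 overlapped 1 H3K27me3 peak at each stage, and the other 3 overlapped none.

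Lopsided gains were least frequent in pairs that gained 500 to 1000 bp, and more frequent both above and below that. Of the 7035 pairs that gained 500 to 1000 bp, 18.1% (1271 pairs) had at least 80% of the gain on 1 side. The share was 34.4% (32.6% to 36.2%) for the 2653 pairs that gained 1000 to 2000 bp and 30.4% (27.9% to 33.1%) for the 1163 that gained 2000 bp or more. In the last group the larger side gained a median of 1926 bp and the smaller 833 bp, and the lower-coordinate side was the larger in 592. Transcription strand was not known, so the sides cannot be named upstream or downstream. For gains under 250 bp the share was 57.3%, and there the larger side gained a median of 128 bp. For the 14056 pairs that gained 250 to 500 bp it was 23.4%, so the share did not rise steadily with the gain.

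Narrowing was rare and its extremes were modest. Among pairs with a P17 peak of at least 1000 bp, the smallest ratio was 0.49, at chromosome 2, where a peak of 5112 bp at 77759847 to 77764958 fell by 2640 bp at its lower side and left one of 2504 bp at chr2:77762487-77764990. On chromosome 11 a peak of 3130 bp at 116626199 to 116629328 became 1587 bp wide (0.51), and its lower side fell by 1551 bp. A pair of peaks at chromosome 14, at 21761238 to 21763320 and 42004971 to 42008484, both had a ratio of 0.54, and one at chr1:97394822-97396962 had a ratio of 0.58. None of the 5 overlapped H3K27me3 or EED. Over all 42 narrowed pairs, 3 overlapped H3K27me3 at P12 (7.14%) and 8 at P17 (interval 9.98% to 33.3%). The shares were 17.2% and 40.1% over all pairs, and 7.31% and 20.5% over widened pairs. The interval of narrowed pairs included the share of all pairs at P12 and lay below it at P17. A low overlap at P17, not matched for width here, was thus seen in narrowed as well as widened pairs.

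Joining was mostly the closing of short gaps. The gaps that P17 peaks bridged between neighbouring P12 peaks had a median of 272 bp, a 90th percentile of 1715 bp and a maximum of 7123 bp. Of neighbouring P12 peaks at most 250 bp apart, 80.3% (76.0% to 83.9%) were joined, against 38.7% of those more than 250 and up to 500 bp apart and 14.5% (11.9% to 17.5%) of those more than 500 and up to 1000 bp apart. Most joins took 2 peaks (640), and 25 took 3. On chromosome 1, P12 peaks of 5125, 1746 and 2486 bp became 1 peak of 9842 bp at 74435659 to 74445500. P12 peaks of 1483, 3948 and 1241 bp on the same chromosome became 1 of 7599 bp at 75499513 to 75507111. On chromosome 11, peaks of 1492, 1344 and 2326 bp became 1 of 7864 bp at 57640043 to 57647906, which overlapped 5 EED peaks. The 13 split peaks gave 2 P17 peaks each, and 3 of them were at chr11:53449157-53452015 and 77614577 to 77615797 and at chr12:23254820-23256047.

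The widest P12 peaks gained little in proportion to their width, with a median ratio of 1.06 in the 15 pairs of 8000 bp or more, but their median gain of 650 bp was above that of each narrower class. The widest, at chr5:143575152-143585959 (10808 bp), was 11187 bp wide at P17. Those at 123584468 to 123594818 and 109978530 to 109988810 on the same chromosome went from 10351 to 12061 bp and from 10281 to 10931 bp. The fourth, at chr2:104965261-104975312, went from 10052 to 12870 bp in a joined peak, and overlapped 8 EED peaks. The fifth, at chr11:74978042-74988082 (10041 bp), became part of the widest P17 peak of all, 16629 bp at 74978140 to 74994768, which also took in a P12 neighbour.

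Broad H3K4me3 peaks therefore had several origins at P17. Peaks of 4000 bp or more numbered 804 at P12 and 3305 at P17. Of the 3305, 736 (22.3%, 20.9% to 23.7%) were paired with a P12 peak that was already 4000 bp or more and 1685 (51.0%) with one of 2000 to 4000 bp. A P12 peak of 1000 to 2000 bp lay at 300 (9.08%), one under 1000 bp at 10, and none at 177 (5.36%). The remaining 397 were joined, split or mixed. Read from P12, 15.6% (14.9% to 16.3%) of paired peaks of 2000 to 4000 bp were 4000 to 8000 bp wide at P17, whereas 15 of 736 of those of 4000 to 8000 bp fell below 4000 bp.

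These origins differed in their overlap with H3K27me3, a measure that the sorting by H3K4me3 width did not use. Of the P17 peaks of 4000 bp or more that were as broad at P12, 53.7% (50.1% to 57.2%) overlapped H3K27me3 at P12 and 73.2% (69.9% to 76.3%) at P17. For those grown from 2000 to 4000 bp the shares were 15.3% (13.7% to 17.1%) and 23.4% (21.4% to 25.5%), and for those grown from 1000 to 2000 bp 15.7% and 31.7%. For those with no P12 peak they were 4.52% (2.31% to 8.66%) and 12.4% (8.35% to 18.1%). The origins are also classes of P12 width, and the overlap rose with that width among all kept P12 peaks. Of these, 14.9% at 1000 to 2000 bp, 27.6% at 2000 to 4000 bp and 54.2% at 4000 to 8000 bp overlapped H3K27me3 at P12. At P17 the shares were 42.4%, 44.1% and 73.8%. These class shares used the P12 interval, whereas those by origin used the wider P17 interval, so they cannot be compared directly. Over the P12 interval, pairs of 1000 to 2000 bp that gained at least 1000 bp overlapped H3K27me3 at P12 in 11.6% (10.0% to 13.3%). The share was 14.7% (14.2% to 15.2%) for the other pairs of that class. EED lay on 19.6% (144 of 736) of the peaks that were broad at both stages, on 3.20% of those grown from 2000 to 4000 bp and on 0 of the 177 new ones, where the interval reaches 2.12%. Width at P17 was closer to equal within the class of 4000 to 8000 bp, where H3K27me3 of P17 lay on 18.6% (16.6% to 20.9%) of pairs at least 1.5 times as wide as at P12 and on 55.0% (52.4% to 57.6%) of pairs that had changed less. The joined, split or mixed peaks were also high, at 41.3% (36.6% to 46.2%) with H3K27me3 at P12, 58.2% (53.3% to 62.9%) at P17 and 14.9% with EED. Over all 3305 broad peaks the shares were 26.4% (24.9% to 27.9%), 38.8% (37.2% to 40.5%) and 7.84%.

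**Figure D3:**
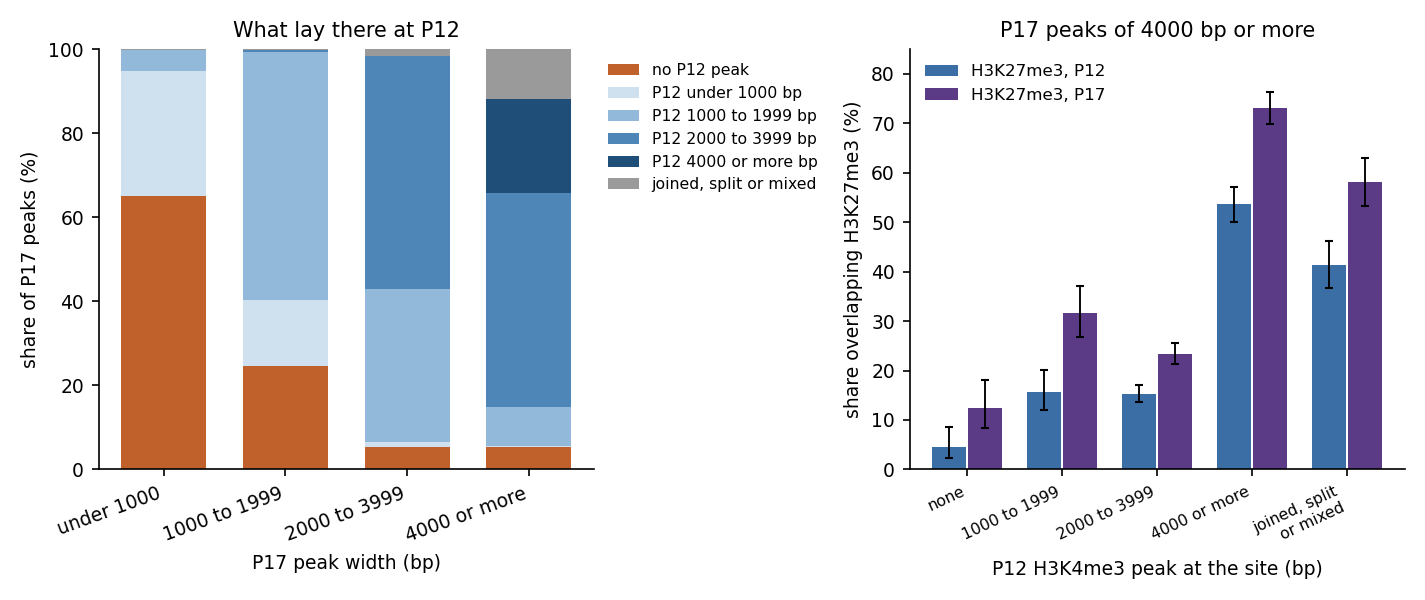
Left, the share (percent) of P17 H3K4me3 peaks of each width class by what lay at the site at P12; right, for P17 peaks of 4000 bp or more, the share overlapping H3K27me3 peaks of P12 and P17, with Wilson 95% intervals (10 peaks grown from under 1000 bp not drawn). Peaks broad at both stages stand highest, at 53.7% and 73.2%, and peaks with no P12 peak lowest, at 4.52% and 12.4%.

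Across pairs, those that widened overlapped H3K27me3 less often than pairs of like P12 width that did not. Over all 40823 pairs, 17.2% of P12 peaks overlapped H3K27me3 at P12, 40.1% at P17 and 1.99% EED. The later H3K27me3 list was much larger than the earlier one, with 26387 peaks covering 86.4 Mb against 13028 covering 21.6 Mb. The EED list held 2701 peaks covering 1.48 Mb. How far list size accounts for differences in overlap between stages or marks, here and in other paragraphs, was not tested. Among pairs of 2000 to 4000 bp, H3K27me3 at P12 lay on 9.08% (7.70% to 10.7%) of the 1420 widened and on 29.9% (29.0% to 30.9%) of the 9253 that were neither widened nor narrowed, here called similar. With H3K27me3 of P17 the shares were 13.9% (12.2% to 15.8%) and 48.3% (47.3% to 49.4%), and with EED 1.13% and 3.92%. Among pairs of 1000 to 2000 bp the shares at P12 were 9.03% and 15.2%, and at P17 26.3% and 44.0%, while EED lay on 1.03% and 1.13%, within counting error. Classed by P17 width and overlapped with the P17 interval, the order held but the sizes moved: at 1000 to 2000 bp the shares with H3K27me3 of P12 were 4.13% and 13.1%, and at 2000 to 4000 bp those with H3K27me3 of P17 were 25.8% and 47.2%. In the narrowest class with many pairs, 500 to 1000 bp, the difference was small, at 3.65% (2.91% to 4.57%) and 5.41% (4.71% to 6.20%) at P12. There EED lay on 0.558% (0.312% to 0.996%) of widened and 0.335% (0.191% to 0.584%) of similar pairs, the reverse order with overlapping intervals. Among pairs of 4000 to 8000 bp, 3 of 27 widened and 392 of 708 similar pairs overlapped H3K27me3 at P12.

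**Figure D4:**
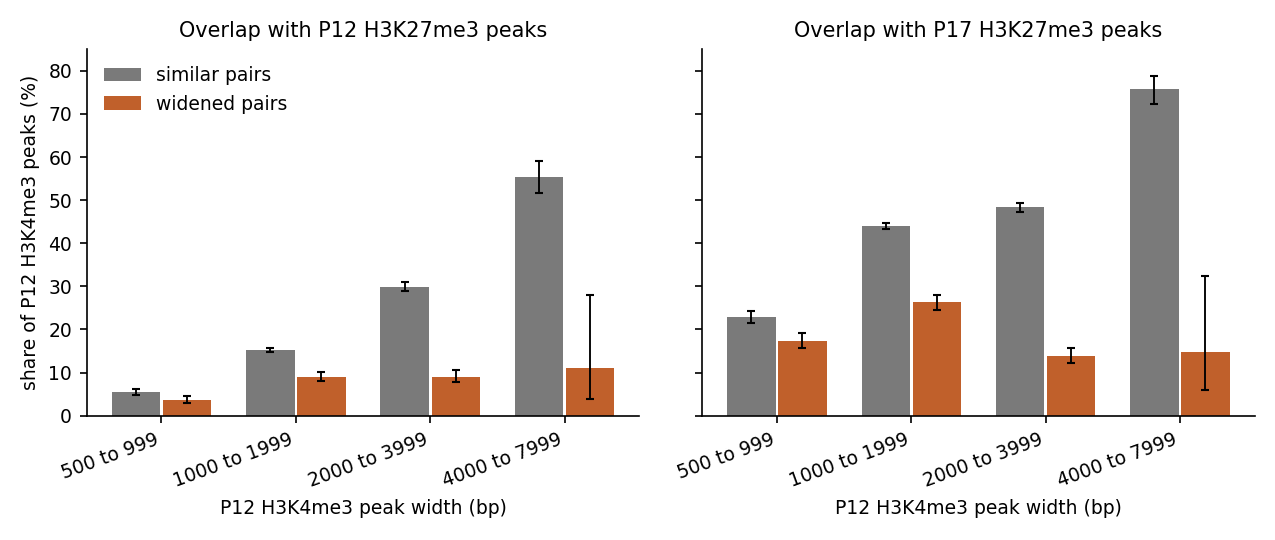
Bars give the share (percent) of P12 H3K4me3 peaks that overlap an H3K27me3 peak of P12 (left) or P17 (right), by P12 width class in bp, for similar and widened pairs with Wilson 95% intervals. Widened pairs are lower in each class, with the gap growing from 500 to 1000 bp to 4000 to 8000 bp.

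Grouped the other way, widening was most frequent where H3K27me3 was listed at neither stage. Against 15.1% of all pairs, 4877 of the 24397 pairs without H3K27me3 were widened, a share with an interval of 19.5% to 20.5%. The share was 6.41% (5.86% to 7.01%) of the 7022 with it at P12 and 8.77% (8.22% to 9.36%) of the 9404 with it at P17 only. At 2000 to 4000 bp these shares were 20.3%, 4.45% and 4.13%, with median width ratios of 1.23, 1.09 and 1.10. The contrast was smaller in narrower classes. At 1000 to 2000 bp the shares were 14.5%, 7.11% and 7.22%. At 500 to 1000 bp they were 37.0%, 27.1% and 30.3%, with ratios of 1.40, 1.37 and 1.38. Sites without H3K27me3 at P12 also differed in whether they had it at P17. At 2000 to 4000 bp 5.73% (4.59% to 7.14%) of widened and 26.5% (25.4% to 27.5%) of similar pairs did. At 500 to 1000 bp 14.5% and 18.6% did. A mixture of cells with either mark cannot be told from cells with both in these lists.

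Joined peaks did not follow the widened ones. Of the 1355 P12 peaks joined at P17, 31.1% (28.7% to 33.6%) overlapped H3K27me3 at P12 and 11.0% (9.44% to 12.8%) EED. Among P12 peaks of 2000 to 4000 bp, the joined ones overlapped H3K27me3 at P12 in 38.2% (33.4% to 43.2%) and EED in 14.9% (11.6% to 18.8%), above the 29.9% and 3.92% of similar pairs. All joined peaks had a P12 neighbour within 7123 bp, whereas the median gap to the next P12 peak was 11751 bp over all kept peaks.

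Sites listed at only 1 stage mostly lay outside H3K27me3. At P12, 2.66% (1.75% to 4.03%) of lost peaks of 1000 to 2000 bp overlapped H3K27me3, against 14.9% of kept peaks of that class. In the class of 500 to 1000 bp, which held 1107 of the 1919 lost peaks, the shares were closer, at 3.43% (2.51% to 4.68%) and 5.27% (4.72% to 5.88%). At P17, 13.7% (12.9% to 14.5%) of new peaks of 1000 to 2000 bp overlapped H3K27me3 against 39.2% (38.6% to 39.9%) of P17 peaks over a P12 peak, and 12.3% against 44.4% at 2000 to 4000 bp. At 500 to 1000 bp the shares were 12.1% (10.6% to 13.7%) and 16.1% (13.9% to 18.7%). Lost peaks lay a median of 15121 bp from the nearest P17 H3K4me3 peak and new ones 16405 bp from the nearest P12 peak, with 22.5% and 22.0% within 5000 bp. Most peaks listed at 1 stage thus lay more than 5000 bp from any peak of the other stage. That distance was like the ordinary spacing of peaks: to the next peak of the same list the median gap was 11751 bp for kept and 18129 bp for lost P12 peaks.

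The autosomes were much alike. The share of P12 peaks kept ran from 94.3% at chromosome 3 (2250 of 2387) to 96.7% at chromosome 4, and the median pair ratio from 1.19 at chromosome 9 to 1.22 at chromosome 12. Widened pairs made up 13.8% (chromosome 19) to 16.6% (chromosome 14), and the counting intervals of those extremes overlapped. New peaks varied more, from 16.0% (14.8% to 17.3%) at chromosome 11 to 23.8% (22.0% to 25.7%) at chromosome 14. Chromosome 11 had the most P12 peaks per Mb of the span they cover, 24.3, and chromosome 14 the fewest of the autosomes, 13.7. Across the 19 autosomes the share of new peaks had a Spearman rho of -0.70 with P12 peaks per Mb, and the share kept one of 0.60. These rhos are descriptions of points that share 2 files. The share of new peaks is also tied to P12 density by its denominator. It is counted over all P17 peaks, of which 80.5% lie over a P12 peak, so it falls where P12 peaks are dense. In number, new peaks were 519 on chromosome 11 and 487 on chromosome 14. The rho for new peaks therefore does not show that they were fewer where P12 peaks were dense. Part of the spread went with width: weighted to the width classes of all autosomes, the new share ran from 18.1% (chromosome 2) to 22.6% (chromosome 14).

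Fewer pairs passed the 1.5-fold limit on the X chromosome than on the autosomes together, although its median ratio of 1.19 was within their range. Of its 1127 pairs 12.2% (10.5% to 14.3%) were widened, against 15.2% (14.8% to 15.5%) on the autosomes, and its interval overlapped that of chromosome 19 (11.9% to 15.9%). In 1.95% against 3.92% of pairs the P17 peak was at least 2 times as wide. H3K27me3 of either stage overlapped 9.23% of X pairs and 41.1% of autosomal ones, so the comparison was repeated in pairs without it, and the difference was larger there. Of 1023 such X pairs 12.7% (10.8% to 14.9%) were widened, against 20.3% (19.8% to 20.8%) of autosomal ones and a range over single autosomes from 18.2% on chromosome 6 to 23.0% on chromosome 15. Weighted to the autosomal width classes, the X value was again 12.7%, and the autosomes ran from 17.8% to 22.9%. In the raw shares of peaks kept and new the X lay among the autosomes: 96.5% (95.3% to 97.4%) of its 1201 P12 peaks were kept and 19.1% (17.1% to 21.2%) of its 1412 P17 peaks were new. Weighted by width, it fell outside them, with 15.9% new against 18.1% to 22.6% and 96.9% kept against 94.7% to 96.4%. The X also had the fewest P12 peaks per Mb of span, 7.43, and the part of that in these differences was not tested. The Y chromosome held 11 P12 and 14 P17 peaks, all 11 kept and 3 of the 14 new.

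**Figure D5:**
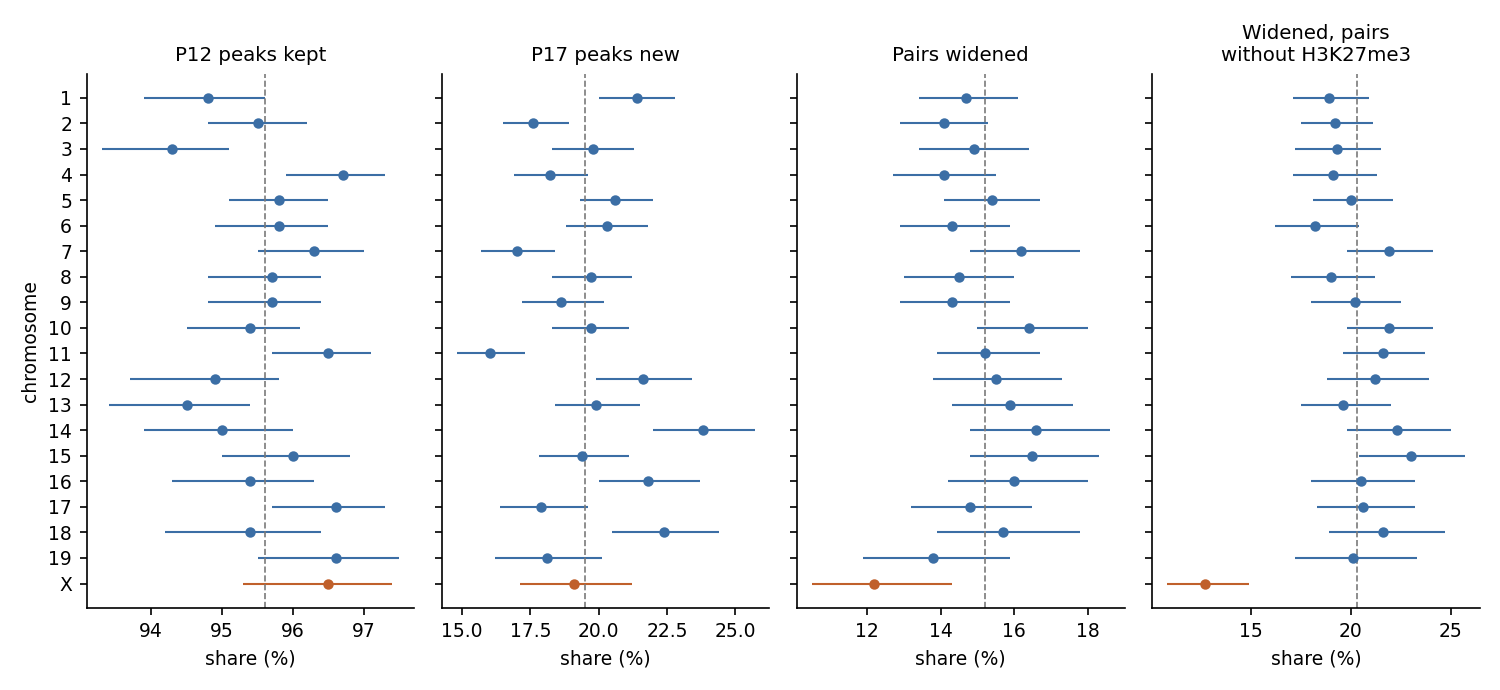
Points give, for each autosome (blue) and the X chromosome (orange), the share (percent) of P12 peaks kept, of P17 peaks new, of pairs widened, and of pairs widened among those without H3K27me3, with Wilson 95% intervals; dashed lines mark all autosomes together, and the axes do not start at 0. In these unweighted shares the X lies within the autosomes for kept and new peaks and below all 19 for widened pairs, at 12.2% and 12.7%.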

How the data were processed

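The deposited peak lists carry names of the MACS caller, and per the file naming the authors used a false discovery rate of level 5. The submitters' processing notes list Bowtie, SAMtools, HTSeq and the mm9 build, with no versions or roles; for the caller settings, aligner parameters and use of input, nothing is stated in the sources used here. The lists hold coordinates, without score, height or p-value. The P17 H3K4me3 list was called on 2 pooled replicates, per the labels. For H3K4me3, peak numbers run without gaps at P12, and 132 numbers (0.255%) are missing from the P17 list. The P12 H3K27me3 list lacks 1957 numbers (13.1%) and the EED list 335 (11.0%), whereas the P17 H3K27me3 list lacks none. Why numbers are missing is not stated, and the effect on overlaps with H3K27me3 and EED was not tested. The 2 H3K27me3 gene-body tables were not used, since they carry no coordinates.

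Lists were compared in Python 3.11.15 (pandas 2.3.3, NumPy 2.4.6, SciPy 1.17.1) by overlap of at least 1 bp; Wilson 95% intervals came from statsmodels 0.14.6. Pairs, joins and splits were read from connected groups of overlapping peaks, with a width threshold of 1.5 times. There were 6 width classes, with limits at 500, 1000, 2000, 4000 and 8000 bp. Coordinates are mm9 and count from 1. Named peaks followed a rule: the 5 widest kept, lost and new, the 5 largest ratios with a P12 peak and the 5 smallest with a P17 peak of at least 1000 bp, and 3 joins of 3 peaks and 3 splits, the first in the sorted lists. Members, classes and rule were chosen with earlier results of these data known, and the comparisons of widened with similar pairs, of broad P17 peaks by origin and of the X chromosome were chosen later, with these files in view. Simulated lists with 200 peaks planted in each of 6 classes were sorted without error. Alternatives changed the overlap, merging, width minimum and fold threshold.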

Additional observations from a re-analysis of the deposited data

How the results depend on the processing

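The share of P12 peaks kept was 95.6% with 50% of the peak covered, 95.9% with a P17 peak within 1 kb allowed and 97.9% for peaks of at least 1000 bp. The share of P17 peaks new was 22.7%, 18.6% and 17.0% under those 3 settings, and 18.8% after merging peaks within 1 kb. The median width ratio was 1.18 for P12 peaks of at least 1000 bp. Widened pairs made up 15.7% after merging, 11.8% for P12 peaks of at least 1000 bp, 3.87% at 2 times and 6.0% when ratios were divided by their median, so this share depends on the threshold. Narrowed pairs made up 0.239% after merging, 0.00980% (4 pairs) at 2 times and 0.412% when divided by the median. Joined, split or mixed peaks were 2.84% after merging. H3K27me3 at P17 lay on 39.2% of P17 peaks over a P12 peak and 12% of new peaks with 50% covered, and on 39.2% of the former at 1000 to 2000 bp. In alternatives chosen after seeing the data (50% covered, P17 width classes, a split at a gain of 1000 bp), widened pairs of 1000 to 2000 and 2000 to 4000 bp overlapped H3K27me3 less often than the others in 12 of 12 comparisons. No paired analysis was possible because each stage has 1 file and the 2 replicates of P17 are pooled in it. Leaving out a replicate was not possible for the same reason. Without scores, no stricter peak threshold than a width minimum could be set, and unknown depth limits every count of peaks and every width.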

Other observations

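New H3K4me3 peaks were spread over the genome. Among 2551 windows of 1 Mb with a P17 peak, the median held 4 new peaks, and 87 held 10 or more. The window with the most, chosen after its values were seen, was chromosome 5 from 117000001 to 118000000. It held 49 P17 peaks, of which 15 were new, and 34 of its 37 P12 peaks were kept. Of its 34 pairs, 7 were widened. The next 3 windows held 14 new peaks each.

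Kept peaks lay closer to others of their own list than peaks found at 1 stage. The median gap to the next peak of the same list was 11751 bp for kept and 18129 bp for lost P12 peaks, and 10102 bp for P17 peaks over a P12 peak and 12746 bp for new ones. Of the 1919 lost peaks, 35 (1.82%) lay between P17 peaks whose numbers skip at least 1 value.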
